A study of Mus musculus with 18 samples.

Results

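The antioxidant response was followed in the liver of juvenile mice with short-term hypothyroidism. It was read from 10 genes, Nqo1, Aox1, Gclc, Gclm, Hmox1, Txnrd1, Srxn1, Ugdh, Ephx1 and Slc7a11. The list was selected on measured values of this experiment, since it was drawn up because Nqo1 and Aox1 were higher in hypothyroid liver, and the differences between hypothyroid and control liver given here for these 10 genes are therefore a description without a test. They were 10 of 16535 genes named on the arrays, 15 of 41174 probes belonged to them, and 13 of the 15 were among the 32056 probes tested.

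Messenger RNA was measured on 10 Agilent 2-colour whole-genome arrays, each with liver RNA of 1 animal in one channel and universal mouse reference total RNA, a commercial mixture, in the other. All animals were male C57BL/6 pups taken on post natal day (PND) 15. The dams of the 5 hypothyroid pups had sugar water with 0.05% methimazole (MMI), which blocks thyroid hormone synthesis, and 1% perchlorate, which blocks iodide uptake, from PND 12, and the dams of the 5 control pups had sugar water alone. Per the methods, 1 pup was taken per litter and pups of both groups had an injection of PBS before sacrifice. The agents reached the pups through the dams and their water, so hormone loss and exposure to the agents cannot be told apart. Control animals were numbered 881, 832, 522, 616 and 391, and hypothyroid animals 891, 576, 311, 723 and 626, and values are listed in that order throughout. All values are log2 ratios of liver over reference signal, so a value below 0 means less signal in liver than in the reference, and a level of one gene cannot be set against that of another.

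The transcription factor NRF2, encoded by Nfe2l2, is held in the cytoplasm and marked for degradation by KEAP1. Oxidants and electrophiles modify KEAP1, NRF2 then enters the nucleus, pairs with a small MAF protein and binds antioxidant response elements (ARE) near its target genes. These targets code for enzymes that reduce quinones, make and recycle glutathione, run the thioredoxin system, break down heme and conjugate foreign compounds. The liver carries much of this work, and several of the genes also answer to other receptors for foreign compounds.

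Promoter sequences are shown because the 10 genes are grouped by this element. They were taken from RefSeq tables of GRCm38.p6 and ran from 250 bases before to 50 bases after each gene start, with 10 promoters for 8 of the 10 genes. The ARE core TGACNNNGC, read on both strands, was found in 4071 of 32851 promoters of this length (12.4%). Of the 10 promoters 4 held it, and these belonged to 4 of the 8 genes. They were Srxn1, Gclm, Ugdh and Txnrd1, the latter in 1 of its 3 promoters. In the following stretches, printed on the gene's strand, the core is in capitals.
Srxn1, chr2:152105542-152105570, plus strand: gcagtgggcaGCTAGGTCAgagtgagaca
Gclm, chr3:122245413-122245441, plus strand: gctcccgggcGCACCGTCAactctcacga
Ugdh, chr5:65435956-65435984, minus strand: gcggagcccgTGACTTAGCtggagctgat
Ugdh, chr5:65435918-65435946, minus strand: tcctcaagggGCGTGGTCAtacagttcgg
Txnrd1, chr10:82859104-82859132, plus strand: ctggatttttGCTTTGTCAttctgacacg

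Counted in bases from the gene start, the core began at -134 in Gclm, at -132 and -94 in Ugdh, at -92 in Txnrd1 and at 29 in Srxn1. In all but the first core of Ugdh it was read on the opposite strand. The 250 bases before the starts of Nqo1 and Aox1, the genes for which the list was made, are given in full, and both held 0 cores.
Nqo1, chr8:107403206-107403455, minus strand: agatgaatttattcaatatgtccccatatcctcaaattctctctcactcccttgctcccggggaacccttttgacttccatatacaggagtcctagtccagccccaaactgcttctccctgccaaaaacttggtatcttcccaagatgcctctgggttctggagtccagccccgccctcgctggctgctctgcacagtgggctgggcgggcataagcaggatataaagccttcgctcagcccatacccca
Aox1, chr1:58029719-58029968, plus strand: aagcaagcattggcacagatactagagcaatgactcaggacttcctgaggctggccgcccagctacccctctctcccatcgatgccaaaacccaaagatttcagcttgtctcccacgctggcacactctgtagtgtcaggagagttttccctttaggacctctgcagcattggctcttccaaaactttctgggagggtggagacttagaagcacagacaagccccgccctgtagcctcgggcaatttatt

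The windows of Ephx1 and Slc7a11 also held 0 cores. The core of the xenobiotic response element, GCGTG, which the aryl hydrocarbon receptor binds, was found in 10639 of the 32851 promoters (32.4%). Of the 10 promoters 7 held it, and these belonged to 5 of the 8 genes (Aox1, Srxn1, Gclm, Ugdh and Txnrd1). One GCGTG match overlapped the second ARE core of Ugdh. The half-site AGGTCA, which thyroid hormone receptors and other nuclear receptors bind, was found in 5340 promoters (16.3%). Of the 10 promoters 1 held it, that of Srxn1, at -215 and 32 from the start. The latter overlapped the ARE core. A match describes letters in the window and was not tested as a binding site. Sequence outside the windows was not searched, so 0 cores does not mean that a gene lacks the element.

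Both arrays of slide 141, control 832 and hypothyroid 576, ran opposite to all others when their dyes were read as labelled (correlation with the other slides -0.972 and -0.977), so the channels of these arrays were exchanged, against the labels. With the exchange the arrays correlated with those of other slides at 0.972 to 0.987, except control 616, at 0.881. The spread (SD) of log2 ratios over probes was 0.733 on that array and 1.01 to 1.10 on the others. Of the 9 genes with a tested leading probe, the ratio of control 616 was the nearest to 0 of the 5 controls in 8. Between 75.9% and 85.4% of probes were above the background limit per array. Albumin (Alb), transthyretin (Ttr) and apolipoprotein A1 (Apoa1), made by hepatocytes, were above the reference on all 10 arrays, and lowest in control 616. Differences are therefore given with and without control 616 and slide 141 for the 9 genes.

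Of the 9 genes, the levels of 5 (Nqo1, Aox1, Ephx1, Gclc and Srxn1) were higher in all 5 hypothyroid livers than in all 5 controls, 0 were lower in all, and 4 overlapped. Over all probes tested, 342 of 32056 (1.07%) were higher without overlap and 322 (1.00%) were lower without overlap. The list was made on this contrast, so nothing is read from the count. The median of the 9 differences was 0.63 on the log2 scale, beside -0.01 over all probes, whose 5th and 95th percentiles were -0.30 and 0.26. By limma, 2 probes of the 32056 (0.00624%) had an adjusted p below 0.05, and neither belonged to the 10 genes. Unadjusted p-values below 0.05 were had by 1071 probes with a higher mean in hypothyroid liver (3.34%) and by 1307 with a lower mean (4.08%). In whole liver, fewer cells of a type and less RNA per cell cannot be told apart.

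**Figure D1:**
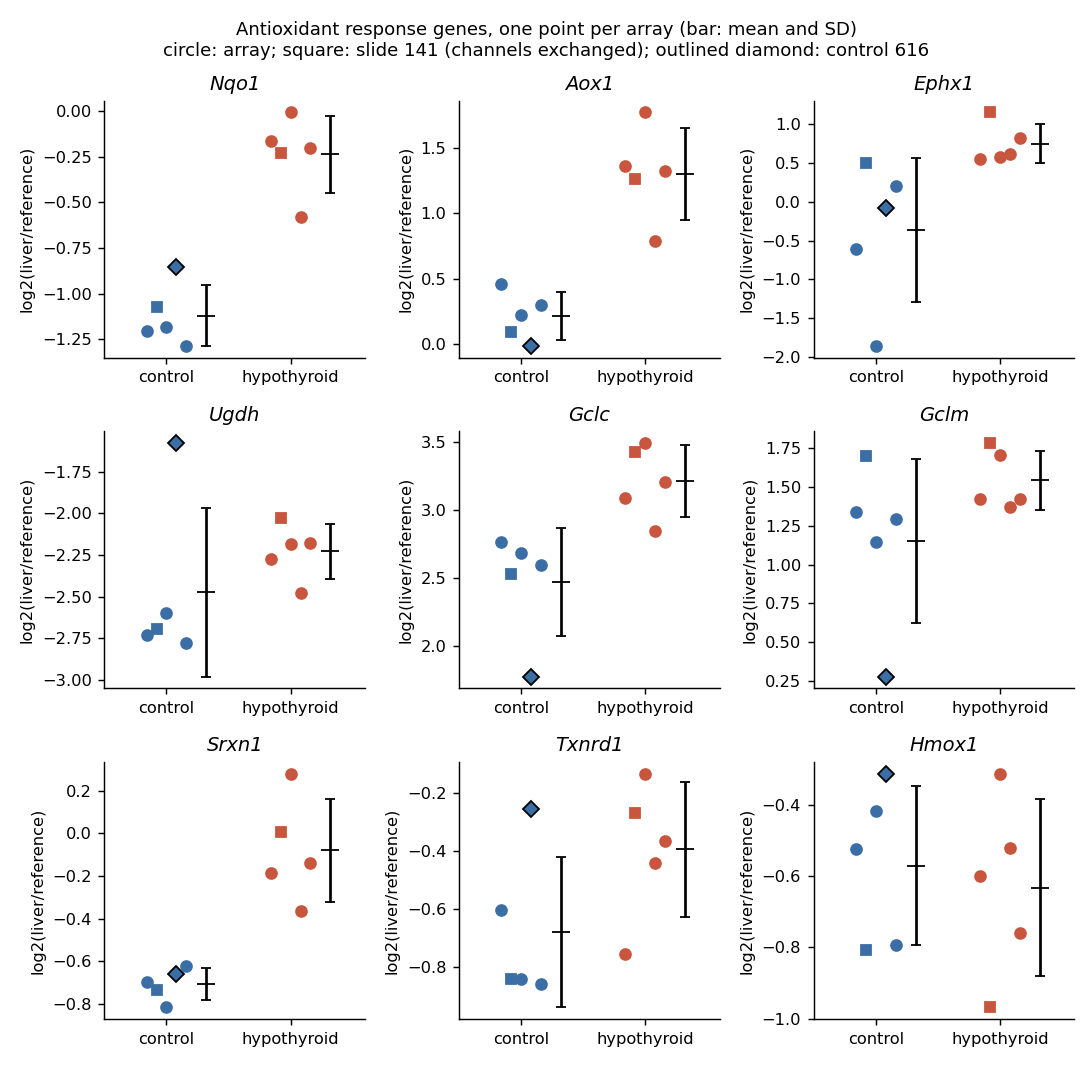
Log2 ratio of liver over reference (vertical axis, a separate scale for each gene) for the leading probe of 9 antioxidant response genes on 5 control and 5 hypothyroid arrays. Each point is 1 animal, bars are the mean and SD, squares are slide 141 and the outlined diamond is control 616. The groups of Nqo1, Aox1, Ephx1, Gclc and Srxn1 do not overlap, and control 616 lies apart in Ugdh, Gclc and Gclm.

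Nqo1 codes for the quinone reductase that turns quinones into hydroquinones with NADH or NADPH, and is a standard readout of NRF2 activity. Its ratios were -1.20, -1.08, -1.18, -0.85 and -1.29 in the controls and -0.16, -0.23, -0.01, -0.58 and -0.20 in the hypothyroid animals. All hypothyroid livers were above all controls. Control 616 was the highest control and hypothyroid 723 the lowest of its group. The means were -1.12 ± 0.17 and -0.24 ± 0.21 (SD, n = 5 each), a difference of 0.88 (limma SE 0.11), or 1.84-fold. The mean of the hypothyroid group was thus still below the reference. The difference was 0.95 without control 616, 0.89 without slide 141 and 0.55 with the dyes of slide 141 as labelled.

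Aox1 codes for aldehyde oxidase, a molybdenum enzyme that oxidises aldehydes and nitrogen rings of foreign compounds. Its ratios were 0.46, 0.09, 0.22, -0.02 and 0.30 in the controls and 1.36, 1.26, 1.78, 0.79 and 1.32 in the hypothyroid animals. The groups were again apart, with hypothyroid 311 highest and 723 lowest of their group. The means were 0.21 ± 0.18 and 1.30 ± 0.35 (SD, n = 5 each), a difference of 1.09 (limma SE 0.16), or 2.13-fold. It was 1.04 without control 616, 1.07 without slide 141 and 0.62 with the dyes as labelled.

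The aldehyde oxidase genes follow each other on chromosome 1, and 0 annotated genes lie between Aox1 and Aox3. The Aox3 ratios were 3.50, 3.97, 3.75, 2.87 and 3.60 in the controls and 3.60, 4.07, 4.05, 4.03 and 3.94 in the hypothyroid animals. These groups overlapped, and the difference of 0.40 (limma SE 0.18) had an adjusted p of 0.671 by limma. Control 616 was the lowest array, and the difference rested in part on it. Aox4 was above the background limit on 1 control array and 0 hypothyroid arrays and was not tested, and Aox2 had no probe. Nqo2, a quinone reductase related to Nqo1, was at 2.46 ± 0.26 in controls and 2.75 ± 0.21 in hypothyroid animals (SD, n = 5 each), with overlap (difference 0.29, limma adjusted p = 0.682). Whether Aox1 differed from Aox3, or Nqo1 from Nqo2, in its response was not tested.

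Ephx1 codes for microsomal epoxide hydrolase, which adds water to reactive epoxides. Its leading probe read -0.61, 0.50, -1.86, -0.08 and 0.20 in controls and 0.56, 1.15, 0.58, 0.62 and 0.83 in hypothyroid animals. The groups were separated by a small gap, between 0.50 in control 832 and 0.56 in hypothyroid 891. Controls were widely spread, with control 522 far below the others. The means were -0.37 ± 0.93 and 0.75 ± 0.25 (SD, n = 5 each), a difference of 1.12 (limma SE 0.37), or 2.17-fold, and 0.74 without control 522. It was 1.19 without control 616, 1.23 without slide 141 and 0.86 with the dyes as labelled. The other Ephx1 probe gave the same picture, at -0.57, 0.51, -1.92, -0.26 and 0.19 in controls and 0.66, 1.26, 0.70, 0.60 and 0.88 in hypothyroid animals, so that the low value of control 522 was read by both probes. The difference of that probe was 1.23.

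Ugdh codes for UDP-glucose dehydrogenase, the source of UDP-glucuronate for conjugation. It read -2.73, -2.69, -2.60, -1.58 and -2.78 in controls and -2.28, -2.03, -2.18, -2.48 and -2.18 in hypothyroid animals. The groups overlapped by control 616 alone, which was above every other array. The difference was 0.25 (limma SE 0.21) over all arrays, and 0.47 without control 616, when the groups did not overlap. It was 0.14 without slide 141 and -0.02 with the dyes as labelled.

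Glutamate-cysteine ligase makes the first step of glutathione synthesis, with its catalytic subunit coded by Gclc and its modifier subunit by Gclm. Gclc read 2.77, 2.53, 2.68, 1.78 and 2.60 in controls and 3.09, 3.43, 3.50, 2.85 and 3.21 in hypothyroid animals. The groups did not overlap, and control 616 was the lowest. The means were 2.47 ± 0.40 and 3.22 ± 0.26 (SD, n = 5 each), a difference of 0.74 (limma SE 0.19), or 1.67-fold. It was 0.57 without control 616, 0.70 without slide 141 and 0.38 with the dyes as labelled.

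Gclm read 1.34, 1.70, 1.14, 0.28 and 1.30 in controls and 1.42, 1.78, 1.71, 1.37 and 1.42 in hypothyroid animals. Control 832 lay within the hypothyroid range and control 616 far below it. The difference was 0.39 (limma SE 0.22) and was 0.17 without control 616. Without slide 141 it was 0.47, and the groups then did not overlap. The catalytic subunit thus stood apart between the groups with and without control 616, while the value for the modifier subunit rested on that array. The difference between the subunits was not tested.

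Slc7a11, which imports cystine for glutathione synthesis, was at the limit of detection. Of its 3 probes, 2 were above the background limit on 0 of 10 arrays, and the third on 3 control and 4 hypothyroid arrays. That probe read -0.34 to -0.06 in controls and -0.42 to -0.11 in hypothyroid animals, a difference of -0.03 (limma SE 0.08). No change could be read at this signal.

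Srxn1 codes for sulfiredoxin, which repairs overoxidised peroxiredoxins. Its leading probe read -0.70, -0.74, -0.82, -0.66 and -0.62 in controls, the closest grouped controls of the list, and -0.19, 0.01, 0.28, -0.36 and -0.14 in hypothyroid animals. The groups did not overlap. The means were -0.71 ± 0.08 and -0.08 ± 0.24 (SD, n = 5 each), a difference of 0.63 (limma SE 0.11), or 1.54-fold. It was 0.64 without control 616, 0.60 without slide 141 and 0.33 with the dyes as labelled. The other Srxn1 probes gave differences of 0.36 and 0.41, with overlap. The probes thus shared the direction and differed in size.

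Txnrd1, the cytosolic thioredoxin reductase, read -0.60, -0.84, -0.84, -0.25 and -0.86 in controls and -0.76, -0.27, -0.13, -0.44 and -0.37 in hypothyroid animals. The groups overlapped through control 616 and hypothyroid 891. The difference was 0.29 (limma SE 0.14), and 0.39 without control 616 and 0.22 without slide 141, both still with overlap.

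Hmox1 codes for heme oxygenase 1, which breaks heme down to biliverdin, and is among the most inducible NRF2 targets. It read -0.52, -0.81, -0.42, -0.31 and -0.79 in controls and -0.60, -0.97, -0.31, -0.52 and -0.76 in hypothyroid animals. The ranges lay almost on each other. The difference was -0.06 (limma SE 0.14), -0.04 without slide 141, 0.003 without control 616 and 0.12 when arrays were centred on their median in place of the loess step.

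On 4 slides there was 1 array of each group, so each gene could be compared within them. Within slides 139, 141, 136 and 100 the difference was 1.04, 0.85, 1.18 and 0.65 for Nqo1 and 0.91, 1.17, 1.55 and 1.34 for Aox1. It was higher in hypothyroid liver on all 4 slides for these and for Ephx1 (0.65 to 2.44), Gclc (0.32 to 1.44), Srxn1 (0.51 to 1.10) and Gclm (0.08 to 1.14). Ugdh was higher on 3 slides and lower, by -0.60, on slide 100, which held control 616. Txnrd1 was higher on 2 and lower on 2, and Hmox1 was higher on 1 and lower on 3.

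**Figure D2:**
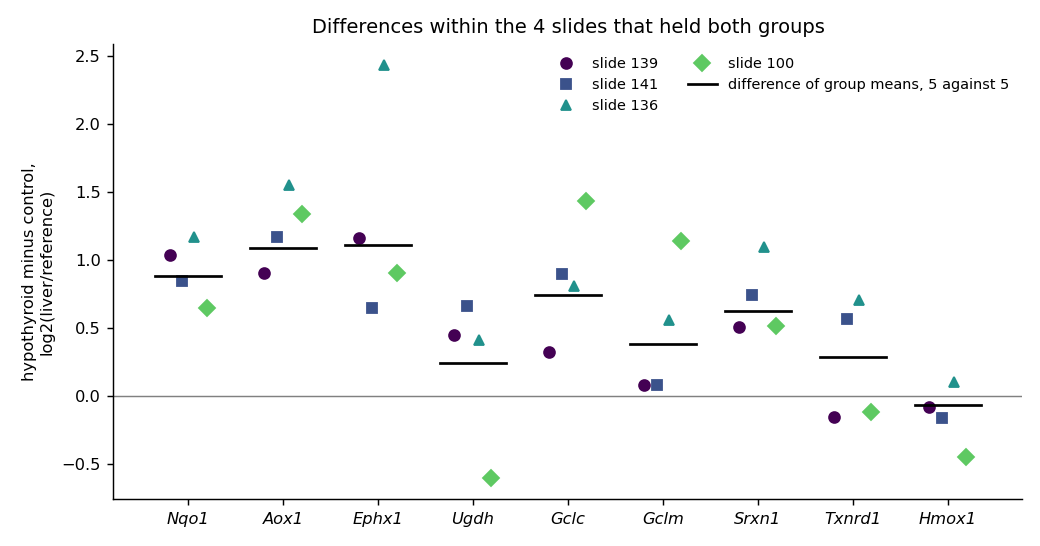
Difference between the hypothyroid and the control array of the same slide (vertical axis, log2 liver over reference) for 9 genes, with 1 symbol per slide and a line at the difference of the group means. All 4 slides lie above 0 for Nqo1, Aox1, Ephx1, Gclc, Gclm and Srxn1, and slide 100 is the only one below 0 for Ugdh.

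The separation of the groups depended on the normalization. With each array centred on its median and no loess step, the groups of 1 gene (Ephx1) stayed apart, and with slide 141 also left out, those of 2 (Nqo1 and Ephx1). Over all probes, 41 of 32056 were higher and 15 lower without overlap with median centring. With slide 141 also left out, 473 of 33154 were higher and 137 lower. With median centring the slides stood further apart, with control 832 at -2.08 and hypothyroid 576 at -1.35 for Nqo1, beside -0.88 and 0.14 on slide 139. Within slides the same 6 genes were still higher on all 4, by 0.73 to 1.55 for Nqo1 and 0.90 to 2.19 for Aox1, and Ugdh was too, by 0.36 to 0.56.

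In 4 of the 5 genes without overlap (Nqo1, Aox1, Gclc and Srxn1) the same hypothyroid animal, 311, was the highest of its group, and in Ephx1 it was animal 576. Animal 723 was the lowest in these 4, and animal 891 in Ephx1. Against the mean of the controls, animal 311 was higher by 1.11 for Nqo1, 1.57 for Aox1, 1.02 for Gclc and 0.99 for Srxn1, and animal 723 by 0.54, 0.58, 0.38 and 0.34. The lowest animal thus had 0.34 to 0.58 where the highest had 0.99 to 1.57. Among the controls, no animal was highest in more than 2 of the 5 genes.

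**Figure D3:**
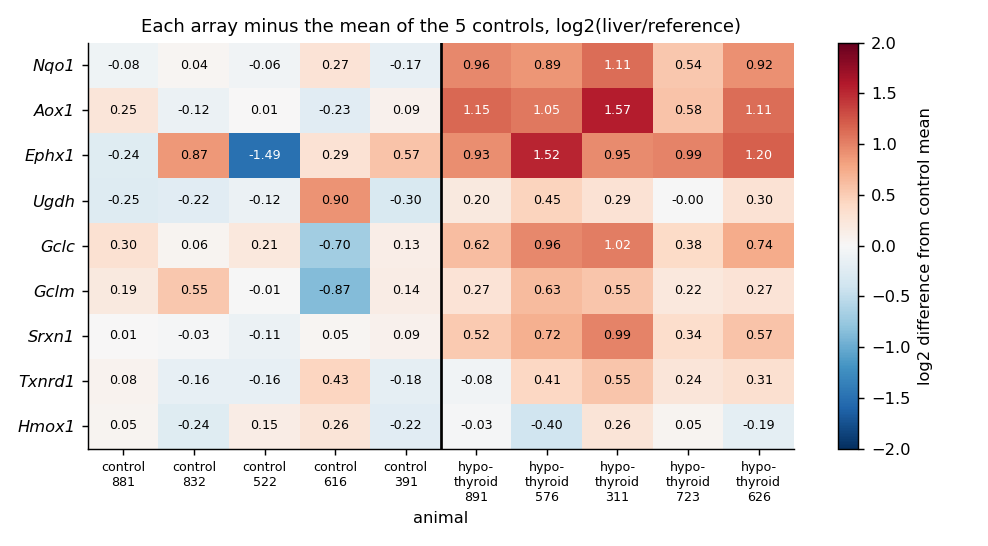
Each array minus the mean of the 5 controls for 9 genes (rows) and 10 animals (columns), in log2 units, with red above and blue below the control mean. Hypothyroid 311 is the highest and 723 the lowest of its group in Nqo1, Aox1, Gclc and Srxn1, and control 616 departs in Ugdh, Gclc and Gclm.

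Over the 10 arrays, which share the reference and the difference between the groups, correlations between these genes ran from -0.551 (Gclm and Hmox1) to 0.954 (Aox1 and Srxn1). Nqo1 and Aox1 correlated at 0.914, and at 0.961 without control 616. Of 14429 genes compared, the 5 most like Nqo1 were Srxn1 (Pearson r 0.935), Gstm1 (0.921), Krt8 (0.921), Cnn3 (0.915) and Aox1 (0.914). The 5 most like Aox1 were Gstm3 (0.977), Gstm1 (0.974), Srxn1 (0.954), Polg2 (0.942) and Creg1 (0.937). Gstm1 and Gstm3 code for glutathione transferases of one family, whose near-identical members can share a probe's signal. Gstm1 was higher in all hypothyroid livers by 1.43 and Gstm3 by 1.26, both more than Aox1. Krt8, a keratin of hepatocytes and bile ducts, was higher by 0.56, Cnn3, an actin-binding protein, by 0.29, Polg2, a subunit of the mitochondrial DNA polymerase, by 0.23 and Creg1 by 0.52, each without overlap. These genes were picked by their likeness over the same arrays, and the values are a description.

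A list of 60 further genes of the same pathway was examined beside the 10. Of these, 56 had a probe and 55 were tested. By limma 0 of the 55 had an adjusted p below 0.05, the smallest being 0.148. At an unadjusted p below 0.05 there were 8 higher and 3 lower, beside 3.34% and 4.08% of all probes tested. The groups did not overlap in 5 genes that were higher and 2 that were lower, beside 1.07% and 1.00% of all probes tested. The mean was higher in hypothyroid liver for 32 and lower for 23, with a median difference of 0.03, beside -0.01 over all probes. With median centring in place of loess, 0 genes of this list had groups apart in either direction. Of all 32056 probes tested, 41 were then higher without overlap and 15 lower. The difference between this list and the 10 chosen genes was not tested.

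Among NRF2 and its regulators 4 of 10 tested genes had a higher and 6 a lower mean. Nfe2l2 itself read 0.02, -0.27, -0.57, 0.25 and -0.48 in controls and -0.45, -0.37, -0.49, -0.30 and -0.29 in hypothyroid animals, with overlap (difference -0.17, limma SE 0.14, adjusted p = 0.783). Control 616 was the highest array, and the difference rested in part on it. The other Nfe2l2 probe gave -0.08, with overlap. Keap1, the inhibitor of NRF2, read 0.38, 0.44, 0.32, 0.28 and 0.48 in controls and 0.54, 0.94, 0.98, 0.76 and 0.79 in hypothyroid animals. All hypothyroid livers were above all controls, and the difference of 0.42 (limma SE 0.09) did not pass (limma adjusted p = 0.224). An array of mRNA does not show how much NRF2 protein was in the nucleus.

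In the thioredoxin system the mean was higher for 8 of 10 genes. Prdx6, a peroxiredoxin that uses glutathione, was at 1.59 ± 0.34 in controls and 1.95 ± 0.07 in hypothyroid animals (SD, n = 5 each), without overlap (difference 0.36, limma adjusted p = 0.629). Control 616 was at 0.99, and without it the difference was 0.21. The other Prdx6 probes gave 0.15 and 0.28, with overlap. Txnrd3, a thioredoxin reductase best known in testis, was lower without overlap by -0.21 (limma adjusted p = 0.469). Of 8 glutathione enzymes 5 had a higher and 3 a lower mean, and in all 8 the groups overlapped. In Gpx1 control 616 read 1.59, the other controls 2.37 to 2.67 and the hypothyroid animals 2.19 to 2.64. In Txnrd2 that array read -0.02, the other controls 0.99 to 1.33 and the hypothyroid animals 1.07 to 1.35. The higher mean of Gpx1 thus rested on control 616, and that of Txnrd2 largely so. Counts of higher and lower means, by role and for the whole list, thus depend in part on that array.

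Of 5 tested genes that supply NADPH, the cofactor of most of these enzymes, 5 had a lower mean. In G6pdx control 616 read -0.43, the other controls -2.17 to -1.96 and the hypothyroid animals -2.33 to -1.93. In Tkt that array read -0.52, the other controls -1.57 to -1.40 and the hypothyroid animals -1.48 to -1.20. The lower mean of G6pdx thus rested largely on control 616, and that of Tkt wholly, since its other controls were all below the hypothyroid mean of -1.36. Me1, malic enzyme, read -1.29, -1.33, -1.40, -1.09 and -0.96 in controls and -1.45, -1.60, -1.79, -1.90 and -1.70 in hypothyroid animals. It was lower in all hypothyroid livers, by -0.48 (limma SE 0.11, adjusted p = 0.274). Me1 is also a classic gene induced by thyroid hormone in liver, as are Dio1, coding for the deiodinase that makes active hormone, and Thrsp, which regulates fat synthesis. Dio1 had a difference of -0.94 (limma SE 0.34, adjusted p = 0.604) and Thrsp of -1.16 (limma SE 0.30, adjusted p = 0.347). In both genes the overlap came from control 616 alone, and without that array the groups were apart, with differences of -1.27 and -1.38.

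Of 5 genes of heme and ferritin, Blvrb, biliverdin reductase B, was higher without overlap, by 0.24 (limma adjusted p = 0.418). In superoxide and peroxide removal 4 of 4 genes had a higher mean, all with overlap. Cat read 1.80 in control 616, 4.36 to 4.71 in the other controls and 4.32 to 4.82 in hypothyroid animals. Its higher mean thus rested largely on control 616, which was also the lowest control in Sod2 (0.93) and Sod3 (0.27). In Sod3 the other controls read 0.32 to 0.74 and the hypothyroid animals 0.37 to 0.77, so the higher mean of Sod3 rested on that array. Among 13 other detoxification enzymes and exporters, 9 had a higher mean. Ugp2, which makes the UDP-glucose that the Ugdh enzyme oxidises, read 1.87, 2.11, 2.09, 1.47 and 1.83 in controls and 2.56, 2.39, 2.45, 2.51 and 2.51 in hypothyroid animals. The groups stood apart, by 0.61 (limma SE 0.11, adjusted p = 0.148), and by 0.38 on its other probe, also apart. Without control 616 the difference was 0.51 and passed the test (limma adjusted p = 0.0450).

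Abcc3, an exporter of glucuronides and bile acids on the blood side of hepatocytes, read 1.03, 0.95, 1.17, 0.52 and 1.26 in controls and 1.54, 1.95, 2.15, 1.46 and 1.90 in hypothyroid animals. The difference of 0.81 (limma SE 0.16, adjusted p = 0.189) was the largest of the 55, without overlap. Its other, dimmer probe gave 0.15, with overlap. None of the genes of the pathway with groups apart thus passed the adjusted test over all arrays.

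**Figure D4:**
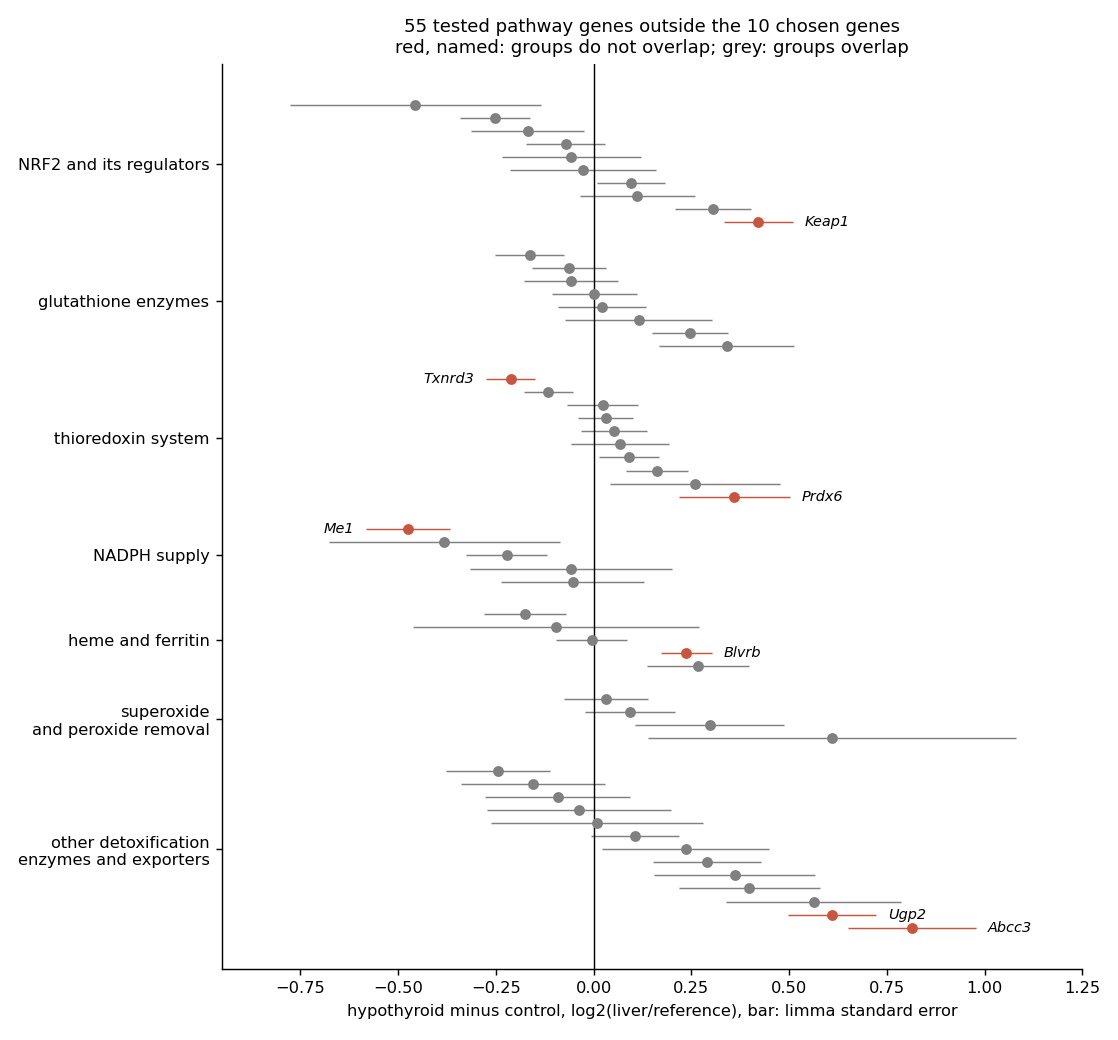
Difference of hypothyroid minus control liver (horizontal axis, log2 liver over reference, 5 arrays each) for 55 tested pathway genes outside the 10 chosen genes, grouped by role, with limma standard errors. Named red points are the 7 genes whose groups do not overlap (Keap1, Txnrd3, Prdx6, Me1, Blvrb, Ugp2 and Abcc3), of which 5 lie above 0 and 2 below.

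Markers of other cells were read beside these genes. Of 7 marker lists, 0 genes had an adjusted p below 0.05 by limma. The summed ratio of 5 hepatocyte markers was 35.9 in control 616, 115 to 189 in the other controls and 131 to 183 in hypothyroid animals. Control 616 was the lowest array in 5 of the 7 lists, those of hepatocytes, Kupffer cells, sinusoidal endothelial, stellate and erythroid cells. The biliary list, in which 0 of 5 markers were above the reference on all arrays, summed to 3.31 on that array and 1.45 to 1.99 on the others. Its ratios were thus nearer to 0 in lists above and below the reference alike. Kupffer cell markers (6 summed) gave 69.4 to 163 in controls and 117 to 146 in hypothyroid animals, sinusoidal endothelial markers (5) 43.8 to 70.1 and 55.0 to 63.3, stellate markers (5) 22.8 to 35.1 and 31.5 to 37.9, and erythroid markers (5) 14.1 to 32.9 and 28.1 to 32.6. Exocrine pancreas markers (5 of 7 summed) were at 91.4 in control 832 and 115 in control 522, and at 22.8 to 30.3 on the other 8 arrays. Control 616 lay within that range by its sum, but 5 of its 7 pancreas markers were above every hypothyroid array, with log2 ratios of 2.67 for Cpa1, 2.56 for Cel, 2.18 for Cela2a and 1.87 for Prss2. These 4 genes were between 3.45 and 4.14 in controls 832 and 522, and between -0.16 and 0.57 in controls 881 and 391 and in the hypothyroid animals. These pancreas markers were thus higher in 3 of 5 controls than in the other arrays, and Cela2a, a pancreatic elastase, was lower in all hypothyroid livers than in all controls. The gap of Cela2a was small, between 0.32 in control 881 and 0.25 in hypothyroid 311. The scanner software marked its signal as well above background on 1 of 5 hypothyroid arrays. Control 522 was also the array with the low Ephx1 value (-1.86). Control 832 had the highest Ephx1 value of the controls (0.50), and control 616 read -0.08. The part of these cells in the results was not tested.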

How the data were processed

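The authors deposited, for each array, the median and background intensity of every spot in both channels, written by the scanner software (Agilent Feature Extraction) and not normalized, beside that software's processed signal intensity. Per the labels liver was in Cy5 and the reference in Cy3. Spots of controls, and those the software had marked as outliers, were omitted. Log2 ratios were computed from the deposited intensities with normexp (offset 50), loess within each array (span 0.2) and repeated spots averaged, in limma 3.58.1 and R 4.3.3. The channels of slide 141 were exchanged. A probe was tested when at least 4 of 5 arrays of a group exceeded the 5% trimmed mean plus 3 trimmed SDs of 153 negative control spots in the liver channel. limma with Benjamini-Hochberg adjustment (0.05) was fitted over all probes tested; the authors' MAANOVA was not run. The files gave accessions, by which 23374 of 41174 probes (20490 of those tested) were named through the RefSeq table of GRCm38.p6. The brightest probe of a gene, over all arrays and both channels, led. Named were all probes of the 10 genes, Nfe2l2, Keap1, the Aox genes, Nqo2, pathway genes without overlap, the 5 genes most like Nqo1 and Aox1, and Dio1, Thrsp and Me1.

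The 10 genes, the pathway list and the marker lists were chosen with earlier results of these data known. The number of arrays limits the precision. Animals were from separate litters per the methods. Alternatives were the dyes as labelled, slide 141 left out, no background correction, processed signals, median centring, a span of 0.3, other filters, slide as a block (statmod 1.5.0), averaged probes and each array left out. Median centring without slide 141 was added after seeing the data. The scripts were tested on simulated data. The miRNA assays (4 files) were not used here.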

Additional observations from a re-analysis of the deposited data

Results flagged for a closer look

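Single arrays stood apart from their group in 5 of 50 groups of 5 arrays examined over the named genes (10%), where chance gives about 5%. For each, the gap between that array and its closest neighbour is given, divided by the range of the group. In 4 of the 5 the array was control 616. Its Ugdh ratio was -1.58, the highest of the controls, with the nearest at -2.60 (gap over range 0.85). Its Gclc ratio was the lowest at 1.78, with the nearest at 2.53 (gap over range 0.759). Its Prdx6 ratio was the lowest at 0.99, with the nearest at 1.67 (gap over range 0.838), and its Dio1 ratio was the lowest at 3.94, with the nearest at 5.46 (gap over range 0.834). The remaining one was Aox3 in hypothyroid 891, the lowest at 3.60, with the nearest at 3.94 (gap over range 0.718).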

How the results depend on the processing

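Over 22 alternatives the difference kept its sign for Nqo1 (0.55 to 1.19), Aox1 (0.62 to 1.35), Ephx1 (0.74 to 1.58), Gclc (0.38 to 1.01), Gclm (0.17 to 0.64), Srxn1 (0.33 to 0.92) and Txnrd1 (0.06 to 0.49), in 21 of 22 for Ugdh (-0.02 to 0.47) and in 17 for Hmox1 (-0.14 to 0.22). With the dyes of slide 141 as labelled, Nqo1 was at 0.55 and Aox1 at 0.62, 0 of the 10 genes and 0 higher pathway genes had groups apart, and 0 probes passed the adjusted limma test. Of all 32578 probes tested, 26 were then higher without overlap. With median centring Nqo1 was at 1.10, 1 of the 10 genes and 0 higher pathway genes had groups apart, and 1 probe passed; with slide 141 also left out, the values were 1.19, 2, 2 and 1. The median difference of all probes was then 0.10, beside -0.01 with loess. Higher without overlap were 41 of 32056 probes with median centring, and 473 of 33154 with slide 141 also left out. Higher pathway genes with groups apart were 2 without background correction and 3 with processed signals, which left 1 probe passing. Over all probes, 256 of 32056 were higher without overlap without background correction, and 320 with processed signals. The number of probes passing was 0 without slide 141, 0 with slide as a fixed block, 14 with slide as a random block and 0 with probes averaged. With single arrays left out it ran from 1 to 30, and pathway genes passing from 0 to 1. The 30 were without control 616, with Ugp2 and the Nqo1 and Aox1 probes among them, and 6 were without hypothyroid 723. Nqo1 and Aox1 were picked on this contrast, so nothing is read from their passing. Why the number of probes passing varied was not tested. Of the 10 genes 6 had groups apart without slide 141, without control 832 or without control 616, and 5 with any other array left out. With fewer arrays more of all probes stood apart too. Higher without overlap were 978 of 33154 probes without slide 141, 689 of 32559 without control 832 and 481 of 32547 without control 616. With any other array left out they were 416 to 582, beside 342 of 32056 over all arrays. No paired analysis was possible because the array labels share no replicate numbers between the groups; arrays could be matched only by slide, through the values within the 4 slides and slide as a block. The signal of Slc7a11, near the background, limits what can be read of it.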
